A study of Homo sapiens with 6 samples.

Results

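Collagen, laminin and integrin genes were described across 6 exon arrays of HepG2 cells, 3 from control cells and 3 from cells treated with atorvastatin. The members were chosen by symbol alone, as the genes named COL, a number, A and a number, those starting with LAMA, LAMB, LAMC, ITGA or ITGB and a digit, and *ITGAE*, *ITGAL*, *ITGAM*, *ITGAV* and *ITGAX*, each with a transcript cluster annotated to exactly 1 symbol. A transcript cluster is the set of probes the array assigns to a gene. The rule found 71 of 12676 genes, with 1 cluster each, of 12797 clusters with exactly 1 symbol. Of these, 38 are collagens, 9 laminin chains, 13 integrin α subunits and 8 integrin β subunits. The other 3 (*ITGB1BP1*, *ITGB1BP2* and *ITGB3BP*) encode proteins named for binding integrin β tails and share only the prefix. A further 8 genes that match the names (among them *COL18A1*, *COL7A1* and *ITGA1*) had only clusters shared with another symbol, and their clusters, which entered an alternative only, differed by −0.043 to 0.078 in log2 value.

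HepG2 is a line of human hepatoblastoma cells that keep many hepatocyte functions, and all samples came from this 1 line without other cell types of the liver. The study asked which transcripts respond to atorvastatin, which blocks HMG-CoA reductase, the rate-limiting enzyme of cholesterol synthesis. All 6 samples were grown on plates coated with collagen I, in medium with 3 mg/mL lipoprotein deficient serum in place of fetal bovine serum. The 3 atorvastatin samples received 10 µM of the drug, named in the labels as (3S, 5S)-Atorvastatin Sodium Salt, for 24 h, and the 3 control samples received none. The paper calls the samples biological replicates and describes triplicate wells, without saying that these were separate cultures, so each *p*-value reflects only how these wells vary.

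Collagens are triple helices of 3 chains that form fibrils, networks or beaded filaments outside the cell. Laminins join 1 α, 1 β and 1 γ chain into a cross and, with the collagen IV network, make up basement membranes. Integrins are α/β receptors that hold cells to these proteins and pass signals to the actin cytoskeleton through talin and kindlin. Hepatocytes rest in the space of Disse on a thin matrix without a full basement membrane, and hepatic stellate cells are the main source of fibrillar collagen in the injured liver.

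The deposited values are log2 signals after RMA, a background correction, quantile normalization and probe summary, so a difference of 1 is a doubling of signal. Array medians lay between 6.66 and 6.72. The hepatocyte markers *ALB*, *AFP*, *APOA1*, *APOB*, *AHSG* and *FGB*, the 6 of 11 listed that were measured, had means of 9.56 to 12.27. Of the 8 measured stellate cell and fibroblast markers of 12 listed, 3 were above the background level given in the next paragraph, and the mean of the 8 lay between 4.28 and 4.46 in control and between 4.30 and 4.44 in atorvastatin arrays. *DCN*, *LUM*, *FAP*, *POSTN* and *VIM* were the 5 at or under it, and *PDGFRB*, *DES* and *THY1*, with means of 6.64, 6.56 and 5.57, the 3 above. Of the measured markers of other cell types, 4 of 9 endothelial, 4 of 8 leukocyte and 1 of 2 platelet markers were also above that level. Whether a value above it means that a gene is in use was not tested. As a check of the labels, the statin response genes *MVD*, *LSS*, *ACSS2* and *LPIN1* were 1.60 to 1.86-fold higher with atorvastatin, with no overlap between the groups. Their adjusted *p* was nevertheless 0.535 for *ACSS2* and *LPIN1* (limma, Benjamini-Hochberg), and none of the 12797 clusters passed an adjusted *p* of 0.05.

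In 11 of the 71 members the mean log2 value was above 8, as it was in 25.1% of all clusters. They were the laminin chains *LAMC1*, *LAMB1*, *LAMB2* and *LAMA5*, the integrin subunits *ITGAV*, *ITGB1*, *ITGB5*, *ITGA6* and *ITGA2*, and the collagens *COL4A5* and *COL9A3*. Signals of different genes come from different probes, so these values are not read as an order of transcript number. As a background, 115 clusters of olfactory receptors, which liver cells are not expected to use, had a median of 4.21 and a 95th percentile of 5.43. Of the 71 members, 49 were above that percentile and 22 were at or below it. The lower group held 13 of the 38 collagens, 4 of the 9 laminin chains (*LAMA1*, *LAMA2*, *LAMA4* and *LAMB4*), 1 of the 13 α subunits (*ITGA8*), 3 of the 8 β subunits (*ITGB3*, *ITGB6* and *ITGB8*) and *ITGB1BP2*. For these 22 a difference describes the array value, and whether that value followed the transcript was not tested.

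**Figure D1:**
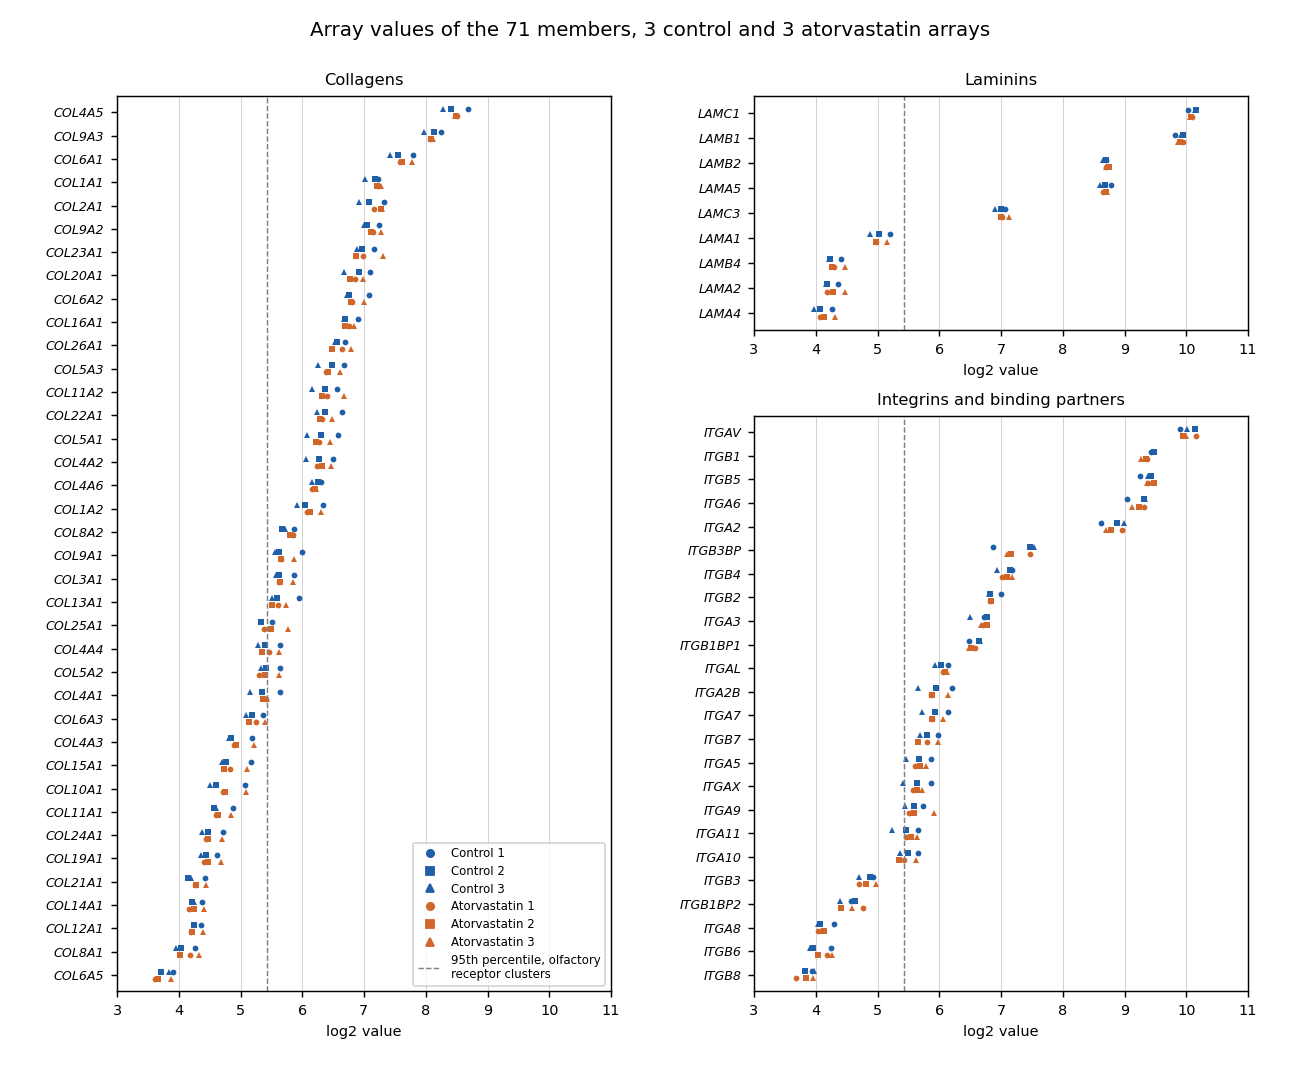
Log2 value (x axis) of each of the 71 members on each of the 6 arrays, with control in blue and atorvastatin in orange and 1 symbol per replicate number. The dashed line is the 95th percentile of the olfactory receptor clusters, 5.43, and the blue and orange points overlap in every gene but *ITGB1*.

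None of the 71 members differed between atorvastatin and control at an adjusted *p* of 0.05 (limma, blocked on replicate number, Benjamini-Hochberg over all 12797 clusters), as 0% of all clusters did. At an unadjusted *p* under 0.05, 0 members and 0.992% of all clusters were called. Without the block the counts were again 0 members, beside 0.0313% of all clusters adjusted and 2.12% unadjusted. The smallest *p* of a member was 0.185 (*ITGB1*, adjusted *p* = 1). No member had every atorvastatin array above every control array (4.57% of all clusters did), and 1 member, *ITGB1*, had every atorvastatin array below every control array (2.68% of all clusters did). The mean was higher with atorvastatin in 48 of 71 members (55.8% of all clusters), but in 60 without replicate 1 (63.5% of all clusters) and in 12 without replicate 3 (44% of all clusters). The median log2 difference was 0.017 over the members and 0.011 over all clusters, and without replicate 3 it was −0.094 over the members. The median size of a difference was 0.045 in the members and 0.051 in all clusters. In 5 members (20.9% of all clusters) the difference was at least 0.1 in size, with *COL25A1*, *COL2A1*, *ITGB6* and *COL10A1* higher and *ITGB1* lower. In RNA from whole wells, fewer cells with a transcript and less of it per cell cannot be told apart.

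How large a change the arrays would still allow is given by the intervals. The 95% confidence interval of the atorvastatin to control ratio lay within 1.5-fold in either direction for each of the 71 members, and for 98.1% of all clusters. Without replicate 1 it did so for 69 members (96.2% of all clusters), and without replicate 2 for 69 (89.6% of all clusters). A bound of 1.25-fold held the intervals of 31 members (50% of all clusters) and a bound of 1.2-fold those of 6 (16.7% of all clusters). The widest upward limit was that of *COL10A1*, at 1.46-fold, and the lowest downward limit that of *ITGB3BP*, at 0.694-fold. An interval reached a median of 0.292 on the log2 scale to either side of the difference, with a range of 0.219 to 0.48.

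**Figure D2:**
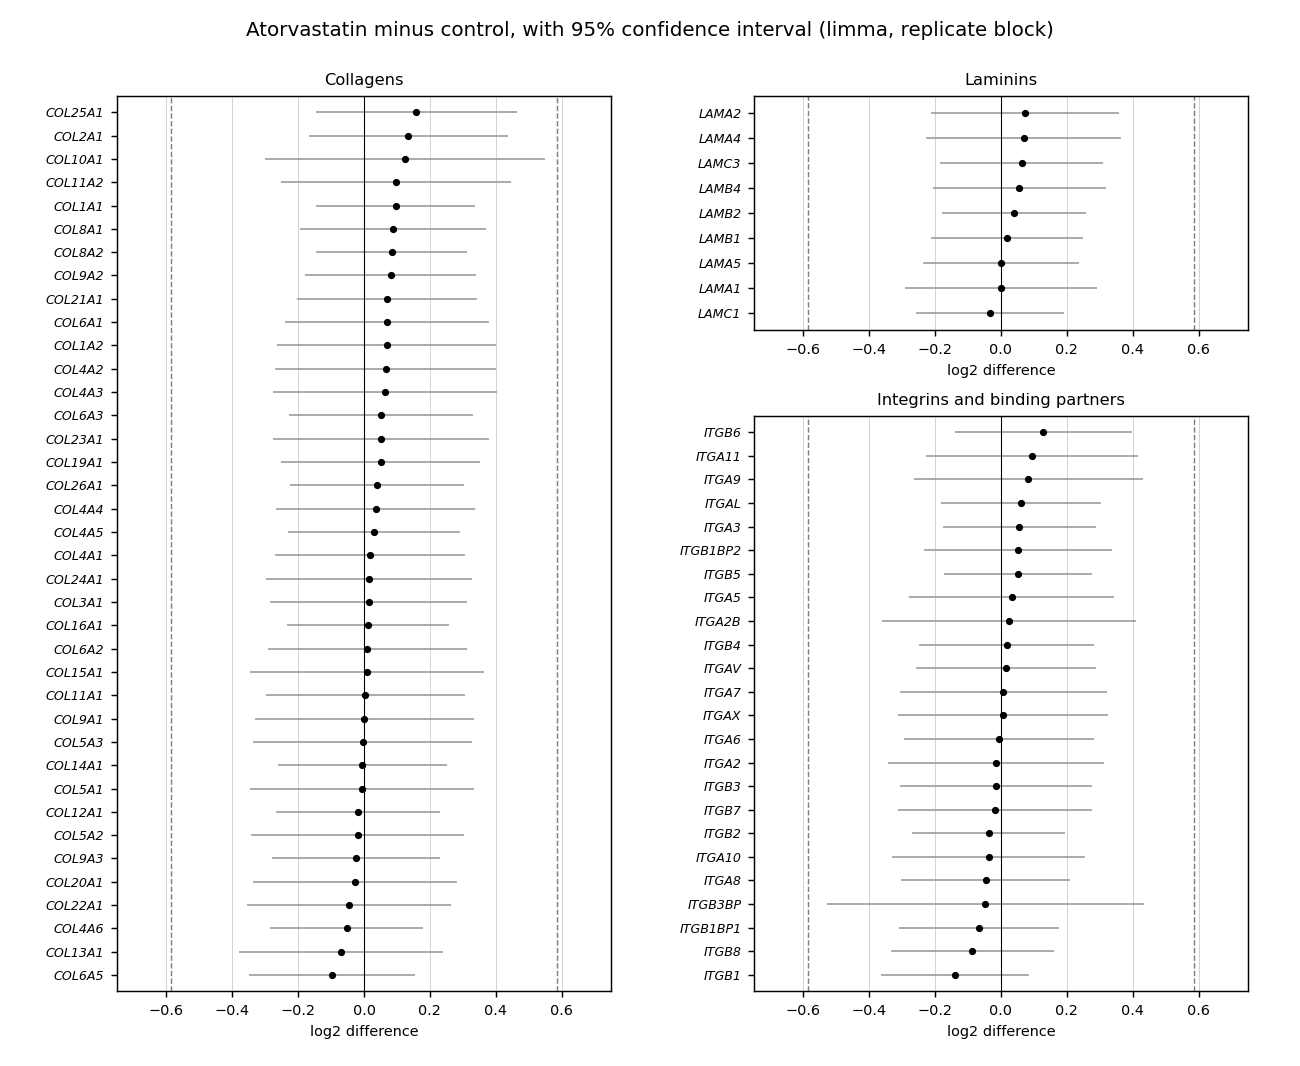
Log2 difference, atorvastatin minus control (x axis), of the 71 members, with the 95% confidence interval of the limma fit as a bar. The solid line marks 0 and the dashed lines a 1.5-fold change, and all 71 intervals lie between the dashed lines and include 0.

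Fibrillar collagens form the striated fibrils of bone, cartilage and connective tissue. Of the 10 measured, 7 had a higher and 3 a lower mean with atorvastatin, with a median difference of 0.015, and without replicate 3 only 2 had a higher mean. *COL2A1* encodes the single chain of type II collagen, the main fibril of cartilage. It was examined because it was the only gene of these families among the splice variants the study lists from RNA-seq. The paper reports the variants on that list as differentially expressed with atorvastatin, in RNA-seq of the same samples. On the arrays, the log2 values of *COL2A1* were 7.32, 7.07 and 6.92 in control arrays 1 to 3 and 7.16, 7.27 and 7.30 in atorvastatin arrays 1 to 3. Control 1 was the highest of the 6 and control 3 the lowest, so the control arrays enclosed all treated arrays. The means were 7.11 ± 0.20 and 7.24 ± 0.072 (SD, n = 3), a difference of 0.13 (95% confidence interval −0.17 to 0.44, limma adjusted *p* = 1), and the exact two-sided permutation *p* was 0.4, where 3 against 3 arrays allow no less than 0.1. Without replicate 1 the difference was 0.28, with an adjusted *p* of 0.594, and without replicate 3 it was 0.014. A cluster value averages the core probe sets of a gene, so it does not separate splice variants. The change of a *COL2A1* variant that the paper reports from RNA-seq was therefore not tested here. The paper also names the variants whose genes were not called at the gene level in RNA-seq, and *COL2A1* is not among them. By that list the gene as a whole also differed in RNA-seq, while the array difference of 0.13 had an interval that includes 0.

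*COL1A1*, which encodes the α1 chain of type I collagen, the main collagen of fibrotic scar and also the coat of the plates, had log2 values of 7.23, 7.18 and 7.02 in control and 7.23, 7.21 and 7.27 in atorvastatin arrays. The treated arrays lay in a narrow band at the upper end of the controls and overlapped them. The difference was 0.096 (95% confidence interval −0.15 to 0.34, limma adjusted *p* = 1). The partner chain *COL1A2* had means of 6.10 ± 0.21 and 6.17 ± 0.13 (SD, n = 3), and *COL3A1*, the fibril collagen of vessels and skin, 5.69 ± 0.16 and 5.70 ± 0.13.

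The 6 collagen IV chains, which build the network of basement membranes, lie in the genome as 3 head-to-head pairs, with the 2 genes of a pair read outward from neighbouring starts. For each plus-strand gene the first listed start was used, with the nearest listed start of its neighbour, and other starts were not compared. The 300-base windows around these starts (250 bases before and 50 after) overlap within each pair. They are printed on the plus strand to show what each pair shares, with the part that also lies in the window of the neighbour in capitals (RefSeq, build GRCh38.p14).
COL4A2 (shared with COL4A1), chr13:110307034-110307333: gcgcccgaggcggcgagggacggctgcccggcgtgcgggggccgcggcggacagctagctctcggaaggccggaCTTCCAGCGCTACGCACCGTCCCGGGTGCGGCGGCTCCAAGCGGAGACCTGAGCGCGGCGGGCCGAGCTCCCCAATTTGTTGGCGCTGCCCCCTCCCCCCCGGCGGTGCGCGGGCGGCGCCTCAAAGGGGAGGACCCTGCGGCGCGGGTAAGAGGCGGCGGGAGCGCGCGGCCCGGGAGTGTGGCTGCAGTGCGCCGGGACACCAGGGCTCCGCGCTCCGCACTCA
COL4A3 (shared with COL4A4), chr2:227164374-227164673: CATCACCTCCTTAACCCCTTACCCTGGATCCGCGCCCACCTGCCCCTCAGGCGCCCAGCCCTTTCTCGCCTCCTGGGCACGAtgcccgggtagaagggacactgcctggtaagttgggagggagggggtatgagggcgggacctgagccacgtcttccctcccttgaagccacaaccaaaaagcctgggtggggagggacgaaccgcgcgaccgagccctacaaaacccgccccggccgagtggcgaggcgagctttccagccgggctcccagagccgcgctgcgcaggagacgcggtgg
COL4A5 (shared with COL4A6), chrX:108439588-108439887: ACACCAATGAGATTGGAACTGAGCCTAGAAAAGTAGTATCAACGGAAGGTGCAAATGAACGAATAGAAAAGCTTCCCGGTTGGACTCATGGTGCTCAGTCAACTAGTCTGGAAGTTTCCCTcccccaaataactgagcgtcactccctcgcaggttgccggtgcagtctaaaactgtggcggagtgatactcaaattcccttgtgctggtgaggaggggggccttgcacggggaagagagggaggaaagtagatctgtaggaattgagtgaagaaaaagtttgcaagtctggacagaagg
The starts of *COL4A2* and *COL4A1* are 127 bases apart and their windows share 226 bases. The other pairs lie wider apart, with 419 bases between the starts of *COL4A3* and *COL4A4* and 380 between those of *COL4A5* and *COL4A6*. G and C made up 77.7% of the *COL4A2* window, 67.7% of the *COL4A3* window and 49.3% of the *COL4A5* window. The letters GGGCGG, the core of the GC box, were found on either strand 1 time in the *COL4A2* window, 2 times in the *COL4A3* window and not in the *COL4A5* window, and 45.0% of the 35116 promoters of the table hold them. The letters CCAAT were found 1 time, 0 times and 2 times, and 34.6% of the promoters hold them. The 2 motifs do not overlap in their letters, and a match here describes the sequence only.

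Within the pairs, the differences between atorvastatin and control ran from −0.053 to 0.066. *COL4A1* and *COL4A3*, with mean levels of 5.39 and 4.98, were under the olfactory receptor percentile of 5.43, and *COL4A4*, at 5.46, was just above it. *COL4A1* and *COL4A2*, which form the common α1 and α2 network, differed by 0.018 and 0.066 between atorvastatin and control. *COL4A3* and *COL4A4*, chains of the network of the kidney glomerulus, differed by 0.065 and 0.036. *COL4A5* and *COL4A6* differed by 0.031 and −0.053. The log2 values of *COL4A5*, the collagen with the strongest signal, were 8.69, 8.42 and 8.28 in control and 8.51, 8.50 and 8.47 in atorvastatin arrays. The 3 treated arrays lay close together, inside the spread of the controls. The difference of 0.031 had a 95% confidence interval of −0.23 to 0.29 (limma adjusted *p* = 1). Without replicate 3 the differences of *COL4A1*, *COL4A2*, *COL4A3*, *COL4A4* and *COL4A5* were all below 0, from −0.12 to −0.050.

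FACIT collagens sit on the surface of fibrils. Of 10 measured, 5 had a higher and 5 a lower mean, with a median difference of −0.0023. All 10 means were higher without replicate 1 and all 10 lower without replicate 3. *COL9A3*, a chain of the cartilage collagen IX, had values of 8.25, 8.13 and 7.96 in control and 8.06, 8.09 and 8.12 in atorvastatin arrays, and *COL9A2*, another chain of collagen IX, had a difference of 0.081. The treated arrays of *COL9A3* again lay within the range of the controls. Among the 8 other network and filament collagens, 7 had a higher mean, with a median difference of 0.061, and without replicate 3 it was 1 of 8, with a median of −0.078. *COL6A1*, a chain of the beaded filaments of collagen VI, had values of 7.80, 7.56 and 7.41 in control and 7.59, 7.61 and 7.78 in atorvastatin arrays, a difference of 0.070. *COL10A1*, the network collagen of hypertrophic cartilage, had values of 5.08, 4.61 and 4.51 against 4.71, 4.76 and 5.10. Its highest arrays were control 1 and atorvastatin 3, and its mean level was under the olfactory receptor percentile. *COL6A5* had the lowest difference of the collagens, −0.097 (95% confidence interval −0.35 to 0.15), at a mean level of 3.77, also under that percentile.

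The membrane collagen *COL25A1*, known from amyloid plaques and from motor axons, had the largest difference of all members over the 6 arrays. The mean level of the gene, 5.47, was just above the olfactory receptor percentile of 5.43. Its log2 values were 5.51, 5.33 and 5.34 in control and 5.38, 5.49 and 5.77 in atorvastatin arrays. Atorvastatin 3 stood above the other arrays, while atorvastatin 1 and 2 lay under control 1. The difference was 0.16, or 1.12-fold (95% confidence interval −0.15 to 0.46, limma adjusted *p* = 1), where the largest difference of all clusters was 0.90. It was 0.021 without replicate 3 and 0.30 without replicate 1, where that of *COL10A1* was larger, at 0.37. *COL23A1*, another membrane collagen, had values of 7.17, 6.96 and 6.89 in control and 6.98, 6.88 and 7.31 in atorvastatin arrays, with its highest value again on atorvastatin 3.

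Of the 9 laminin chains, 8 had a higher mean with atorvastatin, with a median difference of 0.040, and without replicate 3 it was 2 of 9, with a median of −0.045. *LAMC1*, the γ1 chain present in most laminins, had values of 10.04, 10.16 and 10.14 in control and 10.09, 10.08 and 10.07 in atorvastatin arrays. All treated arrays lay between the lowest and the other controls, and the difference was −0.033 (95% confidence interval −0.26 to 0.19). *LAMB1*, the β1 chain, had values of 9.81, 9.94 and 9.91 in control and 9.95, 9.90 and 9.87 in atorvastatin arrays, a difference of 0.019 (95% confidence interval −0.21 to 0.25). *LAMA5*, the α5 chain of mature basement membranes, had means of 8.69 ± 0.089 in control and 8.69 ± 0.035 in atorvastatin arrays (SD, n = 3). *LAMB2*, the β2 chain, had values of 8.70, 8.69 and 8.65 against 8.71, 8.76 and 8.69. The difference of *LAMB2* was 0.040, and it was 1 of 3 members, with *COL1A1* and *ITGB1*, whose difference had the same sign at all 3 replicate numbers (13.8% of all clusters did). *LAMC3*, the γ3 chain, had a difference of 0.062, and the dim *LAMA2* and *LAMB4* differences of 0.072 and 0.055.

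Of the 13 integrin α subunits, 9 had a higher mean, with a median difference of 0.015, and without replicate 3 it was 3 of 13, with a median of −0.096. *ITGAV*, which pairs with several β subunits to bind RGD ligands such as vitronectin, had values of 9.90, 10.13 and 10.02 in control and 10.15, 9.95 and 9.99 in atorvastatin arrays. The groups overlapped over nearly their whole range, with a difference of 0.015 (95% confidence interval −0.26 to 0.29). *ITGA6*, a laminin receptor subunit, had values of 9.04, 9.31 and 9.33 in control and 9.31, 9.23 and 9.13 in atorvastatin arrays. *ITGA2*, which with the β1 subunit binds collagen, had values of 8.62, 8.88 and 8.99 against 8.96, 8.77 and 8.71. In both genes control 1 was the lowest array, the reverse of its place in most collagens, and the differences were −0.0058 and −0.015. *ITGA11*, a receptor subunit for fibrillar collagen, had the largest difference of the α subunits, 0.094 (95% confidence interval −0.23 to 0.42).

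Among the 8 integrin β subunits 3 had a higher and 5 a lower mean, with a median difference of −0.017. The median was 0.046 without replicate 1 and 0.029 without replicate 2. Without replicate 3 it was −0.098, with 2 of 8 means higher. *ITGB1* encodes the β1 subunit, the partner of most collagen and laminin binding α subunits. Its log2 values were 9.43, 9.48 and 9.48 in control and 9.36, 9.34 and 9.26 in atorvastatin arrays. All 3 treated arrays were under all 3 controls. The means were 9.46 ± 0.025 and 9.32 ± 0.054 (SD, n = 3), a difference of −0.14, or 0.908-fold (95% confidence interval −0.36 to 0.09, limma adjusted *p* = 1). The exact two-sided permutation *p* was 0.1, the smallest that 3 against 3 arrays allow, and limma without the block gave an unadjusted *p* of 0.0628 (adjusted *p* = 1). Another cluster, annotated to both *ADGRE3* and *ITGB1*, is not among the members. Its mean of 4.51 was under the olfactory receptor percentile, and it differed by 0.065, with overlap. *ITGB5*, a partner of αV, had values of 9.25, 9.43 and 9.38 in control and 9.38, 9.47 and 9.36 in atorvastatin arrays, with overlap and a difference of 0.051. *ITGB6* and *ITGB8*, the αV partners that activate latent TGF-β, had means of 4.10 and 3.87, both under the olfactory receptor percentile, and differences of 0.13 and −0.087.

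**Figure D3:**
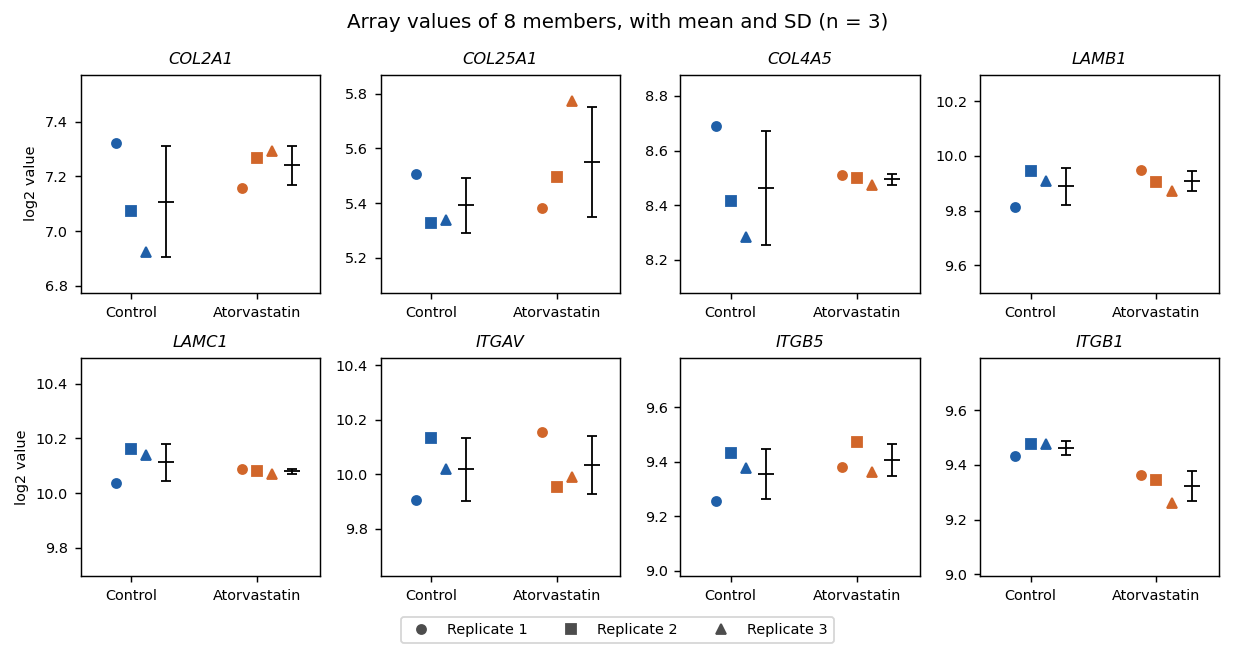
Log2 value (y axis, a separate window of equal height for each gene) of 8 members in the 3 control (blue) and 3 atorvastatin (orange) arrays, with mean and SD (n = 3) as black bars and the replicate number as the symbol. In *ITGB1* the 3 treated arrays lie under the controls, by 0.14 in the mean, and in the other 7 genes the groups overlap.

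The members shared a pattern across the arrays that did not follow the treatment. Control 1 was the highest of the 6 arrays in 37 of 71 members (28% of all clusters) and atorvastatin 3 in 21 (21.5% of all clusters). Together these arrays held the highest value of 58 members, or 81.7%, where they held that of 49.4% of all clusters, and of 35 of the 37 members with a mean under 6, or 94.6%, where they held that of 76.7% of all clusters under 6. Control 3 was the lowest array in 47 members (35.1% of all clusters). The pattern ran through the collagens *COL4A1*, *COL4A2*, *COL5A1* and *COL6A1*, each with control 1 highest and control 3 lowest. It was weaker or turned in the members with the strongest signal: over the 11 members at 8 and above, control 1 had a median deviation of −0.059 from the mean of the 6 arrays, against 0.18 in the 18 members at 5 to 6, and all clusters of these levels had −0.042 and 0.13. At 7 to 8 the 8 members deviated by 0.095 on control 1, −0.15 on control 3 and 0.12 on atorvastatin 3, where all clusters of that level deviated by −0.017, −0.0036 and −0.013. The spread of all values was smallest on control 1 and atorvastatin 3, with SDs of 1.95, and largest on control 3, at 2.04. After the values were quantile normalized again, which sets equal spreads, control 1 was highest in 31 members (26.1% of all clusters) and atorvastatin 3 in 21 (19.9% of all clusters). The SD was larger in control than in atorvastatin arrays in 54 members (62.1% of all clusters).

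**Figure D4:**
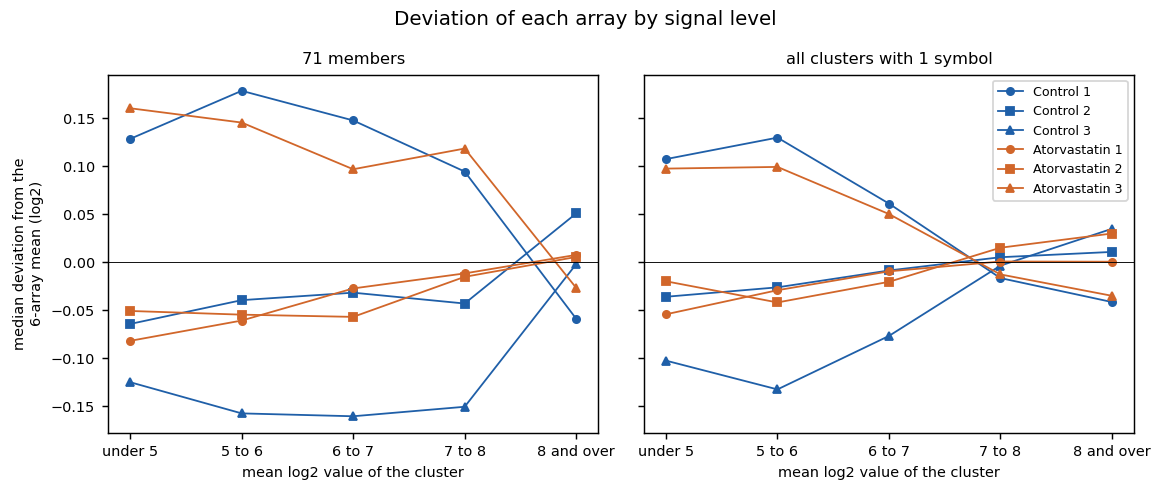
Median deviation of each array from the mean of the 6 arrays (y axis, log2) by mean log2 value of the cluster (x axis, 5 levels), for the 71 members on the left and all 12797 clusters on the right. Control 1 and atorvastatin 3 lie above the other arrays and control 3 under them, up to a level of 8 in the members and of 7 in all clusters.

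The difference by replicate number went from a median over the members of −0.18 at number 1 to −0.0052 at number 2 and 0.27 at number 3. Leaving out control 1 and atorvastatin 3, without the block, gave 21 members with both treated arrays above both controls (20.7% of all clusters) and 7 with both below (13.9% of all clusters). *COL2A1* then differed by 0.22, with an unadjusted limma *p* of 0.0425 and an adjusted *p* of 0.935.

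Genes that make, cut and read the matrix were counted in the same fit, and none passed the adjusted threshold in either direction in any of the 6 lists. Counts without overlap between the groups are to be read beside 4.57% of all clusters higher and 2.68% lower. Of 32 genes of collagen biosynthesis and crosslinking 23 were measured, with a median difference of 0.023 and 4 genes higher and 0 lower without overlap (*PLOD3*, *P3H1*, *SERPINH1* and *PCOLCE*). *PCOLCE*, an enhancer of the protease that trims procollagen, had values of 8.44, 8.47 and 8.54 in control and 8.70, 8.84 and 8.77 in atorvastatin arrays. Every treated array was above every control, with a difference of 0.29 (95% confidence interval 0.06 to 0.51, limma adjusted *p* = 1), and it was the 1 gene of that list with an unadjusted limma *p* under 0.05. *SERPINH1*, the collagen chaperone HSP47, had values of 10.12, 10.14 and 10.09 against 10.26, 10.44 and 10.17, a difference of 0.17 (limma adjusted *p* = 1). Of 17 basement membrane partners 10 were measured (median difference 0.025), and all overlapped between the groups. *NTN4* and *NTN1*, of the laminin-related netrins, had the smallest *p* of these, with differences of −0.18 and 0.075. *NID1*, which links laminin to collagen IV, had means of 9.44 ± 0.029 and 9.44 ± 0.017 (SD, n = 3). All 24 other integrin ligands and collagen receptors were measured (median difference −0.026), with 2 higher (*CDH1* and *DDR1*) and 2 lower (*SPP1* and *NPNT*) without overlap. The fibrinogen chains *FGB* and *FGG* had differences of −0.18 and −0.25, with overlap. *SPP1*, the RGD ligand osteopontin, was 1 of the lower genes, with 11.24, 11.24 and 11.31 in control and 11.15, 11.14 and 11.12 in atorvastatin arrays. Of 32 genes of the adhesion machinery 25 were measured (median difference −0.0029), and *ZYX*, a focal adhesion protein that senses tension, was the 1 gene higher without overlap, by 0.17, while *TNS2* and *ACTN4* were lower, with differences of −0.052 and −0.027. *PTK2B*, a kinase related to focal adhesion kinase, overlapped, with a difference of 0.090. Of 24 matrix proteases and inhibitors 22 were measured (median difference 0.018). The lysosomal protease *CTSB* had values of 10.33, 10.31 and 10.30 in control and 10.02, 10.18 and 10.13 in atorvastatin arrays, a difference of −0.20 (limma adjusted *p* = 1), and was the 1 gene lower without overlap. The inhibitor *TIMP1* was the 1 gene higher, by 0.13, and the protease *MMP3* overlapped, with a difference of −0.20. The list of 22 TGF-β and YAP regulators holds *CCN1* and *CCN2* under 2 names each. With each gene counted once, 19 were measured and *AMOTL2* was not, and the median difference was 0.005. Without overlap, *SMAD7*, an inhibitor of TGF-β signalling, and *SMAD3* were higher, by 0.17 and 0.074, and *SMAD4* and *SOX5* lower, with differences of −0.14 and −0.15 (limma adjusted *p* = 1 for each).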

How the data were processed

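RNA of 3 control and 3 atorvastatin samples was hybridized to GeneChip Human Exon 1.0 ST arrays. The authors imported the scans into Partek, applied RMA (versions not given in the sources used here), kept core probe sets and averaged them per gene. Each deposited value is the log2 signal of a transcript cluster on an array. The processing notes name hg18, so coordinates are given only for RefSeq promoters (GRCh38.p14).

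Groups and replicate numbers came from the sample titles. Gene names came from the platform annotation. Of 16634 clusters, the 12797 with exactly 1 symbol were fitted together in limma 3.58.1 (R 4.3.3) with a block for the replicate number, after the paired t-tests of the methods, leaving 2 residual and 4.58 prior degrees of freedom. Benjamini-Hochberg adjustment at 5% ran over all 12797. The scripts were tested on simulated data. Python 3.11.15 and matplotlib 3.10.9 drew the figures. Intervals are 95% confidence intervals of the fit, and the number of arrays limits their precision.

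The members and lists were chosen with earlier results of these data known. Named genes were the 12 members with the smallest *p*, the 12 with the highest mean, the largest increase and decrease, the brightest and the smallest *p* of each of 10 sub-lists, *COL2A1*, the collagen IV pairs, *MVD*, *LSS*, *ACSS2* and *LPIN1* as a check of the labels, and the 2 smallest *p* of each related list. Other named genes, among them *COL1A2*, *COL3A1*, *COL5A1*, *NID1*, *SPP1*, *TIMP1*, *TNS2*, *ACTN4*, *SMAD3* and *SMAD4*, lie outside this rule and were chosen after their values were seen. Alternatives were no block, a trended and robust prior, the paired t-test of the methods, no clusters under a mean of 6, array centring, quantile normalization again, every cluster, the mean of a gene's clusters, chains only, and each replicate left out. Quantile normalization without the block, and the omission of 2 arrays, were added after seeing the data.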

Additional observations from a re-analysis of the deposited data

How the results depend on the processing

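No member passed an adjusted *p* of 0.05 under any alternative run (limma, or the methods' paired t-test). Over all 12797 clusters, limma called 4 without the block, 21 with the trended and robust prior, 16 without replicate 1 and 32 without replicate 3. Without replicate 2, and after array centring or quantile normalization again, it called 0. At an unadjusted *p* under 0.05, leaving out a replicate gave 0 to 4 members (without replicate 1 *ITGB3BP*, *COL25A1*, *COL10A1* and *COL2A1*, where 7.98% of all clusters passed), quantile normalization without a replicate block gave 1 (*ITGB1*, 3.15% of all clusters), and the omission of control 1 and atorvastatin 3 gave 1 (*COL2A1*, 4.24% of all clusters). Deviations of same-numbered arrays correlated at −0.463, 0.0725 and −0.557 over all clusters, and control 1 went with atorvastatin 3 at 0.618. The sources do not say what the paired tests of the methods paired, and whether the replicate numbers pair the wells was not tested. Leaving out replicate 1 dropped control 1 together with atorvastatin 1. Leaving out replicate 3 dropped control 3 together with atorvastatin 3. Without the replicate block 0 members were called, and differences such as that of *COL2A1* (0.13) are the same by construction.

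Members without overlap numbered 1 higher when arrays were centred on their medians (*COL1A1*, 4.3% of all clusters), 2 lower when quantile normalized again (3.99% of all clusters), 21 higher and 7 lower without control 1 and atorvastatin 3 (20.7% and 13.9%), and 1 to 32 higher and 1 to 19 lower when a replicate was left out (32 and 8 without replicate 1, where all clusters had 29.6% and 20.2%, and 1 and 19 without replicate 3, where they had 12.3% and 17.3%). Over the replicates left out, the median difference ran from −0.094 to 0.14 for all members, −0.11 to 0.15 for collagens, −0.045 to 0.12 for laminins, −0.096 to 0.13 for α subunits and −0.098 to 0.046 for β subunits. Quantile normalization left 39 means higher and changed the sign of 9 members, of which the rule for named genes holds *LAMA5* (−0.0039). The omission of 2 arrays changed the sign of 10, among them *COL9A3*, to 0.029, *ITGAV*, to −0.021, and *LAMB1*, to −0.00078.

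The difference of 59 of 71 members changed sign without at least 1 replicate. The 21 under the rule for named genes were *COL4A1* (−0.11 to 0.14), *COL4A2* (−0.10 to 0.23), *COL4A3* (−0.10 to 0.24), *COL4A4* (−0.12 to 0.14), *COL4A5* (−0.050 to 0.14), *COL6A1* (−0.078 to 0.21), *COL8A1* (−0.048 to 0.17), *COL9A2* (−0.014 to 0.17), *COL9A3* (−0.12 to 0.059), *COL10A1* (−0.11 to 0.37), *COL23A1* (−0.13 to 0.17), *LAMA2* (−0.045 to 0.20), *LAMA5* (−0.056 to 0.067), *LAMB1* (−0.039 to 0.049), *LAMB4* (−0.047 to 0.14), *LAMC3* (−0.025 to 0.12), *ITGA2* (−0.19 to 0.12), *ITGA6* (−0.14 to 0.094), *ITGA11* (−0.065 to 0.25), *ITGAV* (−0.10 to 0.11) and *ITGB8* (−0.14 to 0.0018). The cause was not tested. With 3 arrays a group, the intervals allow changes of up to 1.46-fold, and 22 members had signals at the level of olfactory receptors.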
